A study of Mus musculus with 745 samples.

Results

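This account follows 8 genes of the Notch pathway through single brain endothelial cells of the mouse. They were chosen by symbol: the ligands Jag1, Jag2 and Dll4, the receptors Notch1 and Notch4, and the targets Hey1, Heyl and Hes1. All 8 symbols were among the 20607 in the table. Each of the 745 samples was 1 primary brain endothelial cell of a young, 3-month-old mouse, freed from tissue with a Miltenyi dissociation kit and sorted by FACS. No treatment or genotype is compared. The titles divide the cells into 3 sets, with 30.2% of the cells in Young1, 34.6% in Young2 and 35.2% in AY_Y3. The labels leave unsaid what a set stands for, such as an animal, several animals together or a plate.

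Notch receptors sit in the cell membrane and are switched on by Jagged or Delta-like ligands carried by a neighbouring cell. Ligand binding leads to cleavage of the receptor, and its freed intracellular part enters the nucleus, joins the DNA-binding protein Rbpj and raises transcription of Hey and Hes repressors. In blood vessels the pathway is known for its part in arterial identity, and the transcription factor Nr2f2 (COUP-TFII) for holding it back in veins. A ligand therefore usually acts on the neighbours of the cell that makes it, while Hey and Hes transcripts arise in the cell that received the signal.

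Counts per cell ran from 52819 to 2421434, with medians of 757949, 713031 and 411397 in Young1, Young2 and AY_Y3. The counts are of reads without molecular identifiers, so floors cover counting error only. Intervals of shares treat cells as independent draws and leave out the spread over sets. Wells in which the summed level of a list of marker genes of another cell type passed 10% of that of an endothelial list were set aside: 68 for pericyte, 3 for smooth muscle, 10 for astrocyte and 10 for oligodendrocyte genes. The 654 cells that remained are called endothelial cells here; no doublet caller was run. Levels and shares are compared within a gene and never between genes, since the counts are not scaled to gene length.

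To place the genes along the vessel, each endothelial cell was assigned to the marker pair in which it stood highest. These were the arterial pair Bmx and Gkn3 (32.6% of the cells), the venous pair Nr2f2 and Il1r1 (20.3%) and the capillary pair Cxcl12 and Rgcc (47.1%, 308 cells). The score was the mean of both markers' log2(CPM + 1), where CPM is counts scaled to a library total of 1e+06, standardized within the set. The classes are ranges of a score, not cell types. Every cell of the Nr2f2/Il1r1 and Cxcl12/Rgcc classes had a count of its own pair, but only 59.6% of the Bmx/Gkn3 class did (37.5%, 71.8% and 66.7% in Young1, Young2 and AY_Y3). The next pair's score lay within 0.25 for 44.6% of the Bmx/Gkn3 class, 5.26% of the Nr2f2/Il1r1 class and 11.7% of the Cxcl12/Rgcc class. In the Bmx/Gkn3 class these were 41 of 64 cells of Young1, 22 of 71 of Young2 and 32 of 78 of AY_Y3, so this class was least sharply bounded in Young1. Counts were summed per set and class, and the 9 sums were compared with edgeR's quasi-likelihood test with the set as a block, over 9068 genes. Since the nature of a set is unknown, these p-values measure only the spread over sets, which may be technical. Statements that class ranges overlap or not describe the sums only. The share of all genes without overlap between classes was not worked out.

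Jag1 and Hey1 were higher in the Bmx/Gkn3 class than in the Nr2f2/Il1r1 class, by 2.48-fold for Jag1. Hey1 had a count in 37.6% of the cells of the Bmx/Gkn3 class and 2.26% of those of the Nr2f2/Il1r1 class, and the size of its difference depended on how cells were averaged. These 2 calls among the 7 genes tested stand beside 1.24% of all genes called in this contrast. The genes were chosen with earlier results of these data known, so setting them beside that share is no test. Heyl had a count in 2 endothelial cells and was not tested. Between the Bmx/Gkn3 and Cxcl12/Rgcc classes 0.0662% of all genes were called and 0 of the 7. Between the Nr2f2/Il1r1 and Cxcl12/Rgcc classes the share was again 0.0662%, with 0 of the 7. At an unadjusted p under 0.05 edgeR gave 636 and 637 genes in these contrasts, and DESeq2 called 357 and 348 genes. DESeq2 called Jag1 and Jag2 in the first of them, and Dll4, Notch1 and Hey1 in the second.

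Jag1 encodes a Jagged-type ligand that arteries are known to express. It had a count in 62.2%, 58.7% and 62.2% of the endothelial cells of Young1, Young2 and AY_Y3, and in 56.1%, 56% and 55.8% once every cell was thinned to 50000 counts. Cells with a count held a median of 220.1, 227.7 and 148.1 CPM, and the highest cell of each set reached 3512, 3192 and 1443 CPM. The shares were close in the 3 sets, and levels in single cells spread widely.

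Across classes, the pooled level of Jag1 (the CPM of the summed counts) was 336, 356 and 251.5 CPM in the Bmx/Gkn3 class of Young1, Young2 and AY_Y3. It was 144.6, 149.5 and 93.8 CPM in the Nr2f2/Il1r1 class and 138.03, 116.05 and 83.3 CPM in the Cxcl12/Rgcc class. The lowest Bmx/Gkn3 sum thus lay above every other sum, and the other classes overlapped. Means were 315 ± 55.7 CPM in the Bmx/Gkn3 class, 129.3 ± 30.8 in the Nr2f2/Il1r1 class and 112.5 ± 27.5 in the Cxcl12/Rgcc class (SD, n = 3 sets). The fitted log2 fold change of the Bmx/Gkn3 over the Nr2f2/Il1r1 class was 1.31 ± 0.19 (SE), higher in 3 of 3 sets, with an edgeR adjusted p of 0.0207. Over the Cxcl12/Rgcc class it was 1.48 ± 0.19, in the same direction in 3 of 3 sets, and the edgeR adjusted p of 0.0505 missed the threshold of 0.05. Jag1 passed in the first contrast under 9 of 16 alternative settings (adjusted p from 6.5e-09 to 0.238) and in the second also under 9 of 16 (9.4e-11 to 0.737). The first call was lost whichever set was left out, with edgeR adjusted p of 0.127, 0.238 and 0.235 without Young1, Young2 and AY_Y3, while the log2 fold change was 1.32, 1.36 and 1.27.

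Jag2, the other Jagged ligand, was counted in 37.8%, 41.3% and 57.9% of the endothelial cells of Young1, Young2 and AY_Y3. After thinning the shares were 34.7%, 36% and 52.8%, so AY_Y3 had the highest share at equal depth too. Pooled levels were 205.3, 273 and 271 CPM in the Bmx/Gkn3 class, 125.7, 80.5 and 224.99 CPM in the Nr2f2/Il1r1 class and 87.6, 133.2 and 189.4 CPM in the Cxcl12/Rgcc class. In each set the Bmx/Gkn3 sum was the highest, but its range overlapped that of the Nr2f2/Il1r1 class. Fitted log2 fold changes were 0.90 ± 0.31 over the Nr2f2/Il1r1 class and 0.93 ± 0.31 over the Cxcl12/Rgcc class, with edgeR adjusted p of 0.313 and 0.516. Both passed with other tools, which also called more of all genes than edgeR did. DESeq2 gave adjusted p of 0.022 and 0.0327, and limma 0.00828 and 0.0289.

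Dll4, the Delta-like ligand known for restraining sprouting, was counted in 20.9%, 18.7% and 23.6% of cells. A small number of cells held most of its counts: the top 10 cells of each set carried 72.01%, 68.96% and 60.4% of all Dll4 counts of Young1, Young2 and AY_Y3. Pooled levels were 110.4, 56.95 and 173.3 CPM in the Bmx/Gkn3 class, 26.3, 40.8 and 61.9 CPM in the Nr2f2/Il1r1 class and 147.7, 133.3 and 56.9 CPM in the Cxcl12/Rgcc class. The Cxcl12/Rgcc sum was the highest in Young1 and Young2 and the lowest in AY_Y3. The log2 fold change of the Bmx/Gkn3 over the Cxcl12/Rgcc class was -0.13 ± 0.56 (edgeR adjusted p = 0.991). That of the Nr2f2/Il1r1 over the Cxcl12/Rgcc class was -1.51 ± 0.57 (edgeR adjusted p = 0.611). The Bmx/Gkn3 over the Nr2f2/Il1r1 class gave 1.38 ± 0.56, in the same direction in 3 of 3 sets (edgeR adjusted p = 0.409), and passed in DESeq2 (adjusted p = 0.0367) and limma (0.0299). In GENCODE vM21 an antisense gene, Gm14207, overlaps 5.56% of the exon bases of Dll4, and the use of strand in counting is not given, so reads of both cannot be told apart there.

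The promoters of Jag1 and Dll4 are shown because these ligands were spread differently over the classes, with Jag1 highest in the Bmx/Gkn3 class in every set and Dll4 in no fixed order. Each run is the 250 bases before the annotated start in RefSeq (GRCm38.p6), 5′ to 3′ on the gene's strand, at chr2:137116521-137116770 (minus strand) for Jag1 and chr2:119325534-119325783 (plus strand) for Dll4.
Jag1: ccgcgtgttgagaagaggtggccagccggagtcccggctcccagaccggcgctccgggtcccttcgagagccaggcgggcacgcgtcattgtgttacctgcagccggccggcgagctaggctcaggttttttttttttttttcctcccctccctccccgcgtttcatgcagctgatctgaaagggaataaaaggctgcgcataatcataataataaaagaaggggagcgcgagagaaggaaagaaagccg
Dll4: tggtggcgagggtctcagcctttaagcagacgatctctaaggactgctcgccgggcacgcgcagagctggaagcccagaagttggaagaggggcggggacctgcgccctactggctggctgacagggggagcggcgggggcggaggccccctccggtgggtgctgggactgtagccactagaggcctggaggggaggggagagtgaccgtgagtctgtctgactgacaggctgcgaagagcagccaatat
No letters are in capitals because none of the motifs searched was found. These were GTGGGAA, a core known to be bound by Rbpj, the shorter TGGGAA, which GTGGGAA contains, and CACGTG, an E-box, each on both strands. Of 32851 promoters of this length, 5.42% held GTGGGAA, 21.6% TGGGAA and 6.02% CACGTG. Promoters were matched for 5 of the 8 genes, and those of Jag2, Notch1 and Notch4 held none of the 3 motifs either. No match says only that these letters are not in this window. The Jag1 window had 57.2% G and C and the Dll4 window 65.6%, beside a median of 52.4% over all promoters.

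Of the receptors, Notch1 is the main Notch receptor of endothelium. It was counted in 65.8%, 67.1% and 72.5% of the endothelial cells of Young1, Young2 and AY_Y3. Pooled levels were 397, 335 and 429 CPM in the Bmx/Gkn3 class, 221.7, 221.04 and 240.7 CPM in the Nr2f2/Il1r1 class and 326, 367 and 305 CPM in the Cxcl12/Rgcc class. The Nr2f2/Il1r1 sums lay below all others, and the other classes overlapped. The Bmx/Gkn3 over the Nr2f2/Il1r1 class had a log2 fold change of 0.78 ± 0.17, and the Nr2f2/Il1r1 over the Cxcl12/Rgcc class had -0.58 ± 0.17, each in the same direction in 3 of 3 sets. Neither passed, with edgeR adjusted p of 0.103 and 0.449, while DESeq2 gave 3.1e-04 and 0.0302. Antisense genes overlap 7.5% (0610009E02Rik) and 2.91% (Gm13568) of the Notch1 exon bases, with the same limit on strand.

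Notch4, a receptor known mainly from endothelium, was counted in 29.6%, 37.8% and 45.5% of cells. The top 10 cells of Young1, Young2 and AY_Y3 carried 69.8%, 46.6% and 35.2% of all Notch4 counts. Pooled levels were 99.97, 206.2 and 154.3 CPM in the Bmx/Gkn3 class, 40.6, 82.8 and 60.7 CPM in the Nr2f2/Il1r1 class and 135.5, 53.96 and 81.3 CPM in the Cxcl12/Rgcc class. The Bmx/Gkn3 range lay above the Nr2f2/Il1r1 range, and the Cxcl12/Rgcc range overlapped both. The log2 fold change of the Bmx/Gkn3 over the Nr2f2/Il1r1 class was 1.33 ± 0.47, in the same direction in 3 of 3 sets. It did not pass in edgeR (adjusted p = 0.328) and did in DESeq2 (adjusted p = 0.0169).

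Among the targets, Hey1 is a repressor known as a direct Notch target in endothelium. It was counted in 19.4%, 19.6% and 23.6% of the endothelial cells of Young1, Young2 and AY_Y3, at a median of 613, 422 and 488 CPM in the cells that had it. The top 10 cells of each set carried 62.5%, 69.8% and 49.6% of all Hey1 counts, so its sums rest largely on few cells. Pooled levels were 315, 337 and 256.7 CPM in the Bmx/Gkn3 class, with a mean of 303 ± 41.4 (SD, n = 3 sets). In the Nr2f2/Il1r1 class they were 0.545, 0 and 3.11 CPM, from 19, 0 and 64 counts. In the Cxcl12/Rgcc class they were 139.7, 118.1 and 73.8 CPM. The ranges of the 3 classes did not overlap, which describes these sums only. A Hey1 count was seen in 37.6% of the cells of the Bmx/Gkn3 class, 2.26% of the Nr2f2/Il1r1 class and 17.5% of the Cxcl12/Rgcc class.

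The pooled Hey1 level of the Bmx/Gkn3 class was 578 times that of the Nr2f2/Il1r1 class in Young1 and 82.5 times in AY_Y3. In Young2 the Nr2f2/Il1r1 class had no Hey1 count in its 50 cells. Against a floor of 3 counts in that library sum the ratio was 4659. That floor covers counting error only, so this ratio is no lower bound over cells. Pooled values weigh deep cells more. With every cell weighing the same, an average added after seeing the data, Hey1 had 290.3, 256.8 and 257.4 CPM per cell in the Bmx/Gkn3 class of Young1, Young2 and AY_Y3, against 6.09, 0 and 4.14 CPM in the Nr2f2/Il1r1 class, which made it 47.6 times in Young1 and 62.1 times in AY_Y3. The fitted log2 fold change, 8.49 ± 1.37 in 3 of 3 sets (edgeR adjusted p = 0.0298), depends on the prior count and is no bound. Hey1 passed under 10 of 16 alternative settings, with adjusted p from 5.9e-07 to 0.497. Leaving out Young1, Young2 or AY_Y3 gave edgeR adjusted p of 0.163, 0.132 and 0.0876, at log2 fold changes of 8.02, 7.44 and 10.56. With a limit of 2% in place of 10% for genes of other cell types the log2 fold change was 4.89 (adjusted p = 0.497), and with those wells left out by clustering 5.39 (adjusted p = 0.227). The Nr2f2/Il1r1 over the Cxcl12/Rgcc class gave -7.08 ± 1.31 in 3 of 3 sets, which did not pass in edgeR (adjusted p = 0.122) and did in DESeq2 (adjusted p = 1.4e-04). The Bmx/Gkn3 over the Cxcl12/Rgcc class gave 1.42 ± 0.96 (edgeR adjusted p = 0.900).

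Hes1, a repressor driven by Notch and by other pathways, had no such order. It was counted in 62.2%, 64.9% and 72.5% of cells, at a median of 57.6, 62.8 and 54.5 CPM in the cells that had it. Pooled levels were 136.7, 65.9 and 71.1 CPM in the Bmx/Gkn3 class, 61.3, 68.6 and 88.2 CPM in the Nr2f2/Il1r1 class and 58.1, 106.6 and 68.9 CPM in the Cxcl12/Rgcc class. A different class was highest in each set, and all ranges overlapped. The fitted differences were 0.33 ± 0.44 for the Bmx/Gkn3 over the Nr2f2/Il1r1 class, 0.21 ± 0.44 over the Cxcl12/Rgcc class and -0.12 ± 0.43 for the Nr2f2/Il1r1 over the Cxcl12/Rgcc class, with edgeR adjusted p of 0.859, 0.986 and 0.986. The sign of each turned under other class rules.

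Heyl, the remaining target and a gene known from vascular mural cells, had 1, 38 and 0 counts in the endothelial cells of Young1, Young2 and AY_Y3, the first and the second each from 1 cell. In AY_Y3 it was counted in 0 cells, which allows a share of up to 1.29% of cells with a count (3 cells of the total).

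**Figure D1:**
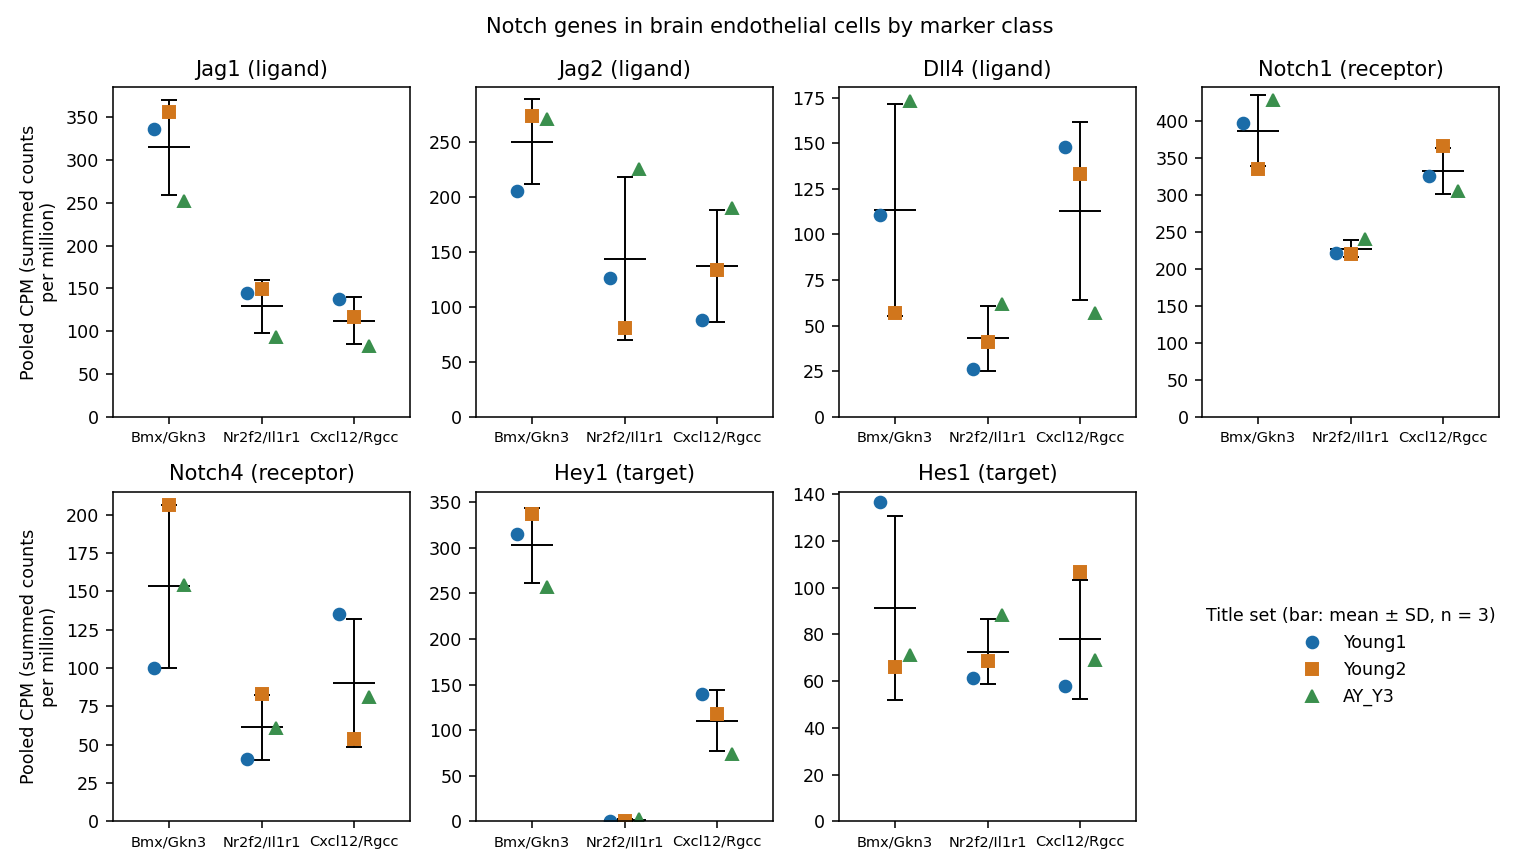
Pooled CPM (linear axes) of 7 Notch genes in the Bmx/Gkn3, Nr2f2/Il1r1 and Cxcl12/Rgcc classes, with a symbol per set and a bar for the mean ± SD of the 3 sets. Jag1 and Hey1 are highest in the Bmx/Gkn3 class in every set, Hey1 is near 0 in the Nr2f2/Il1r1 class, and Hes1 overlaps throughout.

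**Figure D2:**
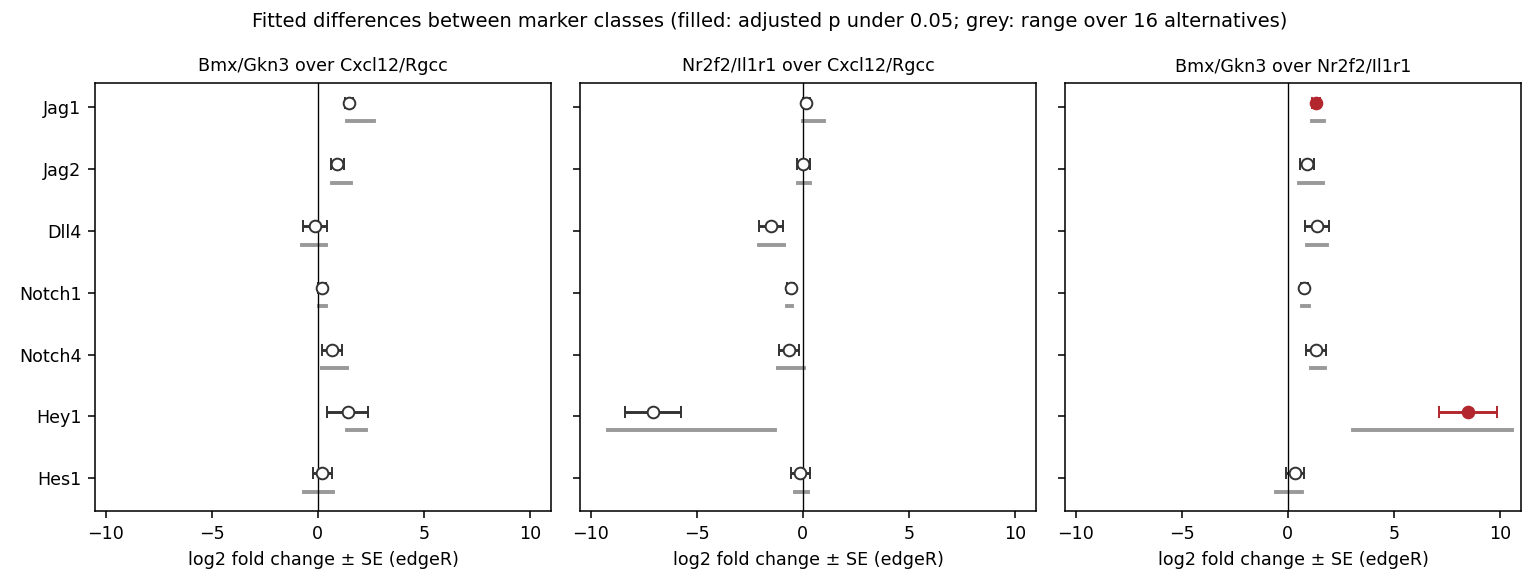
Fitted log2 fold changes ± SE (edgeR) of 7 Notch genes in the 3 contrasts, filled where the adjusted p is under 0.05, with grey bars for the range of the estimate over 16 alternative settings. Jag1 (1.31) and Hey1 (8.49) in the Bmx/Gkn3 over Nr2f2/Il1r1 contrast are the filled points, and the grey bars of Hes1 cross 0 in all 3 contrasts.

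The median log2 fold change of the 7 tested genes was 1.31 for the Bmx/Gkn3 over the Nr2f2/Il1r1 class, 0.69 for the Bmx/Gkn3 over the Cxcl12/Rgcc class and -0.58 for the Nr2f2/Il1r1 over the Cxcl12/Rgcc class. Over all genes tested the medians were -0.006, -0.017 and -0.016 in that order of contrasts. The contrasts share sums and the genes were chosen with earlier results known, so these values stand side by side only. Other measures also moved with the classes. The summed level of 9 pericyte genes was 65.1 to 150.6 CPM in the Bmx/Gkn3 class, 172.2 to 283 CPM in the Nr2f2/Il1r1 class and 141.96 to 273 CPM in the Cxcl12/Rgcc class. Vtn, Abcc9 and Atp13a5 were at 0 in the Bmx/Gkn3 class, Pdgfrb in the Nr2f2/Il1r1 class and Cspg4 in the Cxcl12/Rgcc class. Genes detected per cell at 50000 counts had medians of 1692 in the Bmx/Gkn3 class, 2200 in the Nr2f2/Il1r1 class and 1549 in the Cxcl12/Rgcc class, and the part of this in the results was not tested. Without the 5% of cells highest in mural genes the log2 fold change of the Bmx/Gkn3 over the Nr2f2/Il1r1 class was 8.40 for Hey1 and 1.32 for Jag1, with edgeR adjusted p of 0.0368 and 0.0233. With the 2% limit for genes of other cell types it was 4.89 for Hey1 and 1.11 for Jag1. Neither passed then, with edgeR adjusted p of 0.497 and 0.230. The endothelial list summed to 26065, 26408 and 27429 CPM in the Bmx/Gkn3, Nr2f2/Il1r1 and Cxcl12/Rgcc classes, with none of its 10 genes at 0.

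The other genes of the pathway were taken from lists of 75 genes by role, of which 68 were in the table and 50 were tested. These lists too were chosen with earlier results of these data known. Between the Bmx/Gkn3 and Nr2f2/Il1r1 classes 2 of the 50 were higher and 0 lower, beside 1.24% of all genes called in this contrast. Both of these genes belong to the list of further targets (5 tested of 13 listed, median log2 fold change 4.07). Efnb2, the arterial ephrin ligand, had 178.3, 101.03 and 58.6 CPM in the Bmx/Gkn3 class, against 8.09, 1.73 and 7.24 CPM in the Nr2f2/Il1r1 class. Its log2 fold change was 4.36 ± 0.64 in 3 of 3 sets (edgeR adjusted p = 0.0207). Unc5b, a netrin receptor of arteries and sprouting vessels, had 192.9, 241.4 and 137.96 CPM in the Bmx/Gkn3 class, against 5.94, 13.3 and 12.9 CPM in the Nr2f2/Il1r1 class. This was a change of 4.07 ± 0.59 in 3 of 3 sets (edgeR adjusted p = 0.0207). In both genes the groups did not overlap, which has no share of all genes beside it and describes these sums only. In the Cxcl12/Rgcc class Efnb2 had 85.6, 58.01 and 47.7 CPM and Unc5b 208.5, 110.1 and 50.2 CPM. Efnb2 passed under 9 of 16 alternatives and Unc5b under 10 of 16. With Young1, Young2 or AY_Y3 left out, the edgeR adjusted p was 0.163, 0.160 and 0.0876 for Efnb2 and 0.0422, 0.278 and 0.111 for Unc5b.

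The other 3 tested targets did not pass. Hes6, a Hes-family member named here after its values were seen, had 13.8, 12.1 and 30.3 CPM in the Bmx/Gkn3 class, against 40.4, 30.2 and 56.3 CPM in the Nr2f2/Il1r1 class. Its log2 fold change was -1.22 ± 0.59, in the same direction in 3 of 3 sets (edgeR adjusted p = 0.515). Gja4, an arterial connexin, had 121.8, 76.1 and 107.8 CPM in the Bmx/Gkn3 class, against 2.24, 0 and 1.604 CPM in the Nr2f2/Il1r1 class (edgeR adjusted p = 0.072). Sox17, an arterial transcription factor, was at 1.15 ± 0.26 on the log2 scale, with an edgeR adjusted p of 0.102. Of the machinery shared by all Notch signals, 0 of 5 glycosylation genes passed in this contrast, 0 of 8 proteases, 0 of 10 genes of endocytosis and turnover, 0 of 8 coactivators and 0 of 12 corepressors. With 1.24% of all genes called, lists of this size would hold few calls at the background share, and nothing is read from these counts. The glycosyltransferases Mfng and Poglut1 had log2 fold changes of 0.30 and -0.30. The protease Adam10 and the gamma-secretase subunit Ncstn had -0.15 and 0.53. The epsin Epn2 and the ubiquitin ligase subunit Fbxw7 had 0.37 and -0.82, and did not share a sign. The coactivators Crebbp and Snw1 had -0.17 and 0.04, and the corepressors Ctbp1 and Ncor1 0.04 and -0.43. The secreted factor Egfl7 was at 0.07 and the receptor Notch2 at -0.36. Over all 50 genes the median was 0.04, and in the other contrasts 0 of them passed.

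Markers were also taken singly, which avoids the score. Among 47 cells with both Bmx and Gkn3 counts, Jag1 was counted in 40 (85.1%, exact 95% interval 71.7 to 93.8) and Hey1 in 26 (55.3%, 40.1 to 69.8). Among cells with Nr2f2 or Il1r1 and neither arterial marker, Jag1 was counted in 85 (62.96%, 54.2 to 71.1) and Hey1 in 2 (1.48%, 0.180 to 5.25). Among 369 cells with none of these 4 markers the shares were 50.9% for Jag1 and 17.9% for Hey1. Cells that lacked all 4 markers thus held Hey1 in a share between those of the other groups. In Young1, Young2 and AY_Y3, Hey1 was counted in 5 of 8, 12 of 19 and 9 of 20 cells with both arterial markers and in 1 of 37, 0 of 50 and 1 of 48 cells with a venous marker. The intervals above pool the cells of all sets and leave out the spread over sets.

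The receptors and Dll4 were also set against the marker combinations, at 50000 counts per cell. Notch4 was counted in 63.8% of cells with both arterial markers, 32.3% of the 96 with Bmx alone, 29.6% of those with a venous marker and 29.3% of those with none. Dll4 was counted in 40.4%, 16.7%, 9.63% and 19.8% of the same groups, and Notch1 in 80.9%, 65.6%, 59.3% and 62.9%. For all 3 genes the largest share was that of cells with both arterial markers, a group of 8 cells in Young1. Cells with a count of these genes also had more genes detected at 50000 counts. Medians with and without a count were 1880 and 1584 for Notch4, 1790.5 and 1651.5 for Dll4, and 1760 and 1558 for Notch1. The part of this in the shares was not tested. Hes1 had 55.3% in cells with both arterial markers and 65.9% in cells with a venous marker, but its level per cell did not follow its share along Il1r1, so no order was read from it. These are shares of cells with no test across sets.

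**Figure D3:**
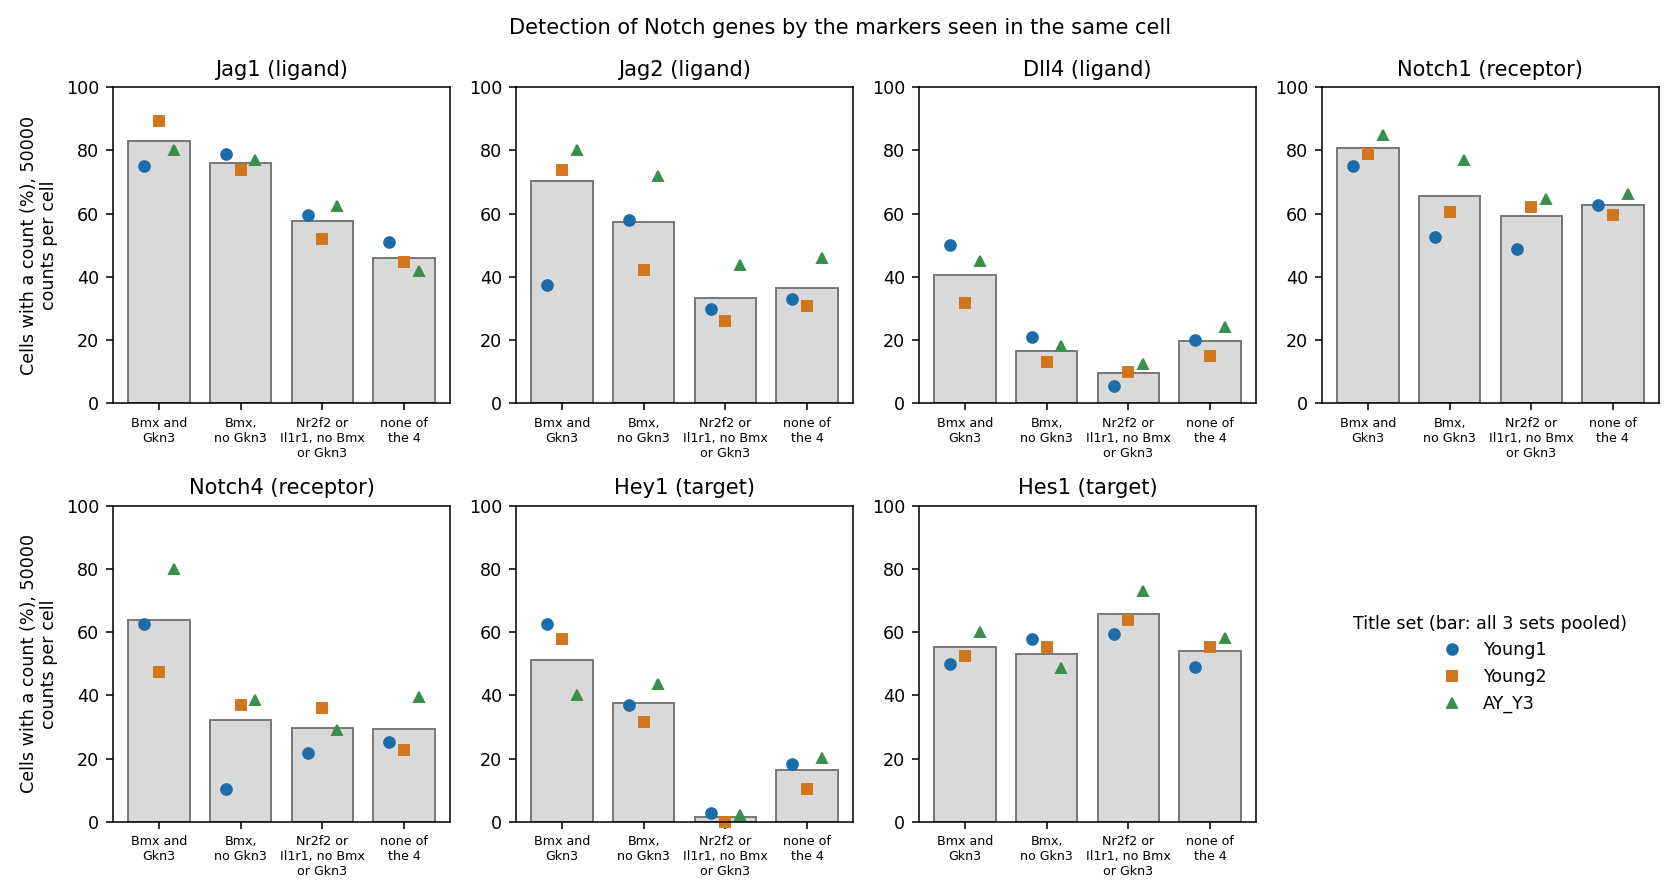
Share of cells with a count (percent, each cell thinned to 50000 counts) for 7 Notch genes in cells with Bmx and Gkn3, with Bmx but not Gkn3, with Nr2f2 or Il1r1 but neither, and with none of the 4 markers, as bars over all cells with a symbol per set. The Hey1 bar is at 1.48% in cells with a venous marker, and the bars of Notch4 and Dll4 are tallest in cells with both arterial markers.

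Along a single marker, cells with a count of it were split at their median within the set. Jag1 averaged 192.4, 153.4 and 92.04 CPM per cell in cells without Bmx in Young1, Young2 and AY_Y3, 404, 287 and 330.2 CPM below the Bmx median and 589, 504 and 260.5 CPM above it. Cells with any Bmx count averaged more Jag1 in each set, while the order below and above the median was not the same in all sets. Notch4 was detected, after thinning, in 29.9%, 28.8% and 57.1% of the cells without Bmx, below its median and above it. Hey1 was detected in 13.3%, 38.4% and 45.7% of the same groups. By set, Notch4 had 24.3%, 14.3% and 38.5% in Young1, 28.6%, 31.03% and 50% in Young2 and 36.8%, 33.3% and 72.4% in AY_Y3, and was most frequent above the median in each. Hey1 had 15.4%, 57.1% and 30.8% in Young1, 8.33%, 31.03% and 50% in Young2 and 16.1%, 36.7% and 48.3% in AY_Y3, least without Bmx in each and with no fixed order of the other groups. These shares were not tested.

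Along the venous marker Nr2f2 Hey1 was detected in 23.05%, 3.39% and 3.51% of cells without the marker, below its median and above it. Dll4 was detected in 20.7%, 14.04% and 5.45% of cells without Il1r1, below its median and above it. Both are shares over the 3 sets pooled, with few positive cells among those with a venous marker, and were not tested. Along the capillary marker Cxcl12 the level of Jag1 ran the other way from Bmx. It averaged 483, 473 and 220.04 CPM per cell in the 27, 23 and 26 cells of Young1, Young2 and AY_Y3 without Cxcl12, 268, 228.7 and 171.6 CPM below the median and 119.3, 140.96 and 96.2 CPM above it. The same order was thus seen in each set.

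Ligands and receptors were common in the same cell. Of the 654 endothelial cells, 528 (80.7%) had a count of at least 1 of the 3 ligands, 516 (78.9%) of Notch1 or Notch4, and 425 (64.98%, exact 95% interval 61.2 to 68.6) of both roles. The share with both was 59.2%, 64% and 70.8% in Young1, Young2 and AY_Y3. The interval pools the cells of all sets, and the shares of Young1 and AY_Y3 lay outside it. Each role was common on its own, and the share with both was not compared with what that alone would give. A receptor without a ligand was seen in 91 cells, 13.9%, and a ligand without a receptor in 15.7%. All 3 roles, a ligand, a receptor and Hey1 or Hes1, met in 338 cells (51.7%), and 16 cells had a count of none of these roles (Heyl left aside). At 50000 counts per cell the share with a ligand and a receptor was 57.3% and with all 3 roles 38.99%, so these shares depend on depth.

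Hey1 was counted in 12.7%, 14.02%, 29.03% and 44.7% of cells with a count of 0, 1, 2 and 3 of the ligands. After thinning the shares were 11.3%, 13.8%, 29.6% and 45%. The sets differed in shape, with 15.2%, 19.5%, 16.9% and 42.9% in Young1, 12.5%, 12%, 32.8% and 38.5% in Young2 and 9.38%, 11.5%, 34.04% and 50% in AY_Y3. As deposited, the share was highest with all 3 ligands in each set (14, 13 and 20 cells), and with 2 it stood below that with 1 in Young1. After thinning this order did not hold in Young2, with 34.5% for 2 ligands and 30% for 3. By ligand, Hey1 was counted in 26.3% of cells with Jag1 and 12.5% of those without, in 28.8% with Jag2 and 14.2% without, and in 24.6% with Dll4 and 19.96% without. Cells with Jag1 also had more genes detected at 50000 counts (median 1826, against 1516 without), and the part of this in the shares was not tested.

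Hes1 was counted in 63.5% of cells with Hey1 and 67.7% of cells without. Notch1 was counted in 78.99% of cells with Dll4 and 65.9% of cells without. Over the 654 cells the Pearson correlations of log2(CPM + 1) among the 7 detected genes ran from -0.04 (Hey1 and Hes1) to 0.19 (Jag1 and Hey1). Cells of a set are not replicates and differ in depth, and correlations this weak in sparse counts are no finding.

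**Figure D4:**
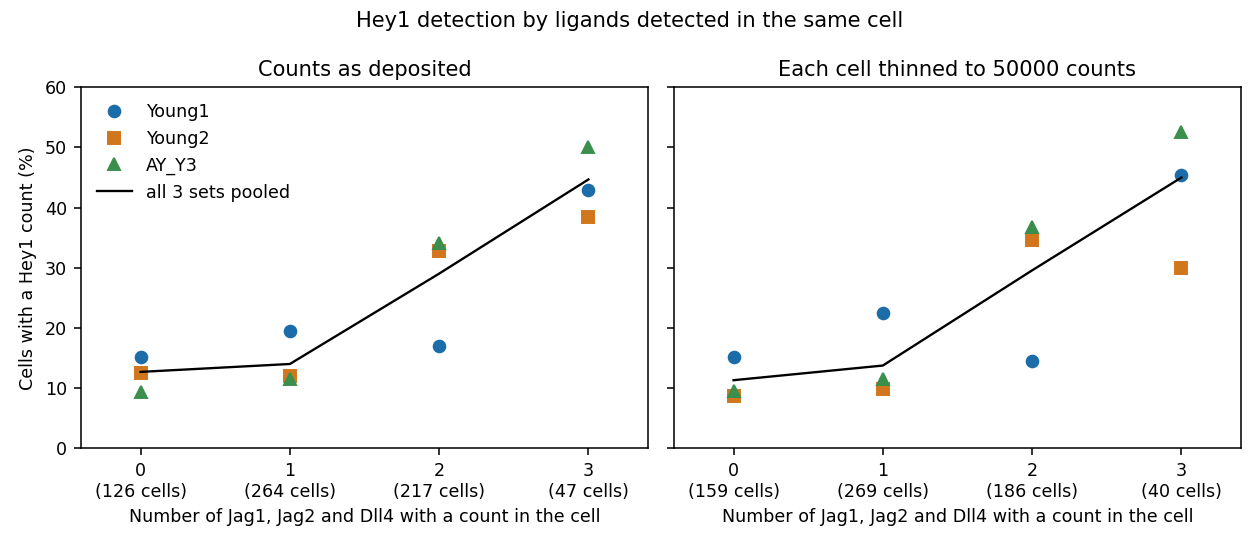
Share of endothelial cells with a Hey1 count (percent) by the number of Jag1, Jag2 and Dll4 with a count in the same cell, as deposited and after thinning each cell to 50000 counts, with a symbol per set and a line for all cells. As deposited the line is at 12.7% with 0 ligands and 44.7% with 3, and Young1 is lower with 2 ligands than with 1.

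For each gene, those most like it were ranked by the mean over the 3 sets of the Pearson correlation of log2(CPM + 1) across endothelial cells, among 6817 genes counted in 10% of the cells or more. For Jag1 these were Mgp (0.40), an inhibitor of calcification, Laptm5 (0.38) and Stmn2 (0.37). Hey1 had Stmn2 (0.39), Alpl (0.37), the tissue alkaline phosphatase, and Mgp (0.33), so that Mgp and Stmn2 were named for both. For Jag2 they were Ssfa2 (0.28), Ccnd2 (0.26) and Alpl (0.25). Notch4 had Mylk (0.22), Naca (0.21) and Mgp (0.19). For Dll4 they were Pkd2 (0.17), Htra1 (0.17) and Myo10 (0.17), for Notch1 Epas1 (0.19), March2 (0.18) and Sem1 (0.18), and for Hes1 Stard8 (0.17), Fn1 (0.16) and Rasgrp2 (0.16). Heyl was detected in too few cells. These values describe 654 cells, which are not replicates and differ in depth. Those of Dll4, Notch1 and Hes1 are weak correlations in sparse counts and no finding. None of the 7 genes was among the 3 most like another of them.

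The 68 wells set aside for pericyte genes, which were not chosen by Heyl, held Heyl where endothelial cells nearly lacked it. It was counted in 10 of 24, 5 of 24 and 8 of 20 such wells of Young1, Young2 and AY_Y3, at pooled levels of 234.97, 67.2 and 84.2 CPM, against 0.00595, 0.216 and 0 CPM in endothelial cells. Hey1 had 108.6, 19.3 and 57.7 CPM in the pericyte-list wells, against 168.2, 154.9 and 127.4 CPM in endothelial cells. Notch4 had 27.1, 88.8 and 44.1 CPM in the pericyte-list wells, against 104.2, 105.7 and 104.1 CPM in endothelial cells. Heyl, Hey1 and Notch4 did not overlap between the groups, with Heyl above and the others below. Jag2 had 104.1, 54.1 and 104.2 CPM in the pericyte-list wells, against 134.1, 162.2 and 225.7 CPM in endothelial cells, and did not overlap either. Dll4 had 116.6, 167.6 and 37.4 CPM in the pericyte-list wells, against 110.3, 88.97 and 100.2 CPM in endothelial cells, and overlapped. Jag1 had 119.2, 200.03 and 122.2 CPM in the pericyte-list wells, against 204.4, 194.9 and 146.4 CPM in endothelial cells. Notch1 had 201.7, 427 and 271 CPM in the pericyte-list wells, against 328, 323 and 339 CPM in endothelial cells. Hes1 had 72.98, 43.2 and 73.8 CPM in the pericyte-list wells, against 84.5, 85.6 and 73.2 CPM in endothelial cells. Jag1, Notch1 and Hes1 thus overlapped as well. Of the 8 genes, 3 were lower and 1 higher without overlap, beside 10.7% lower and 7.18% higher of the 10674 genes counted in 5% or more of the wells of either type. Heyl was counted in 33.8% of the pericyte-list wells and 0.306% of endothelial cells. It thus met the 5% limit only through the wells where it was higher, and nothing is read from its count here. A pericyte list above 10% of the endothelial list was enough to set a well aside, so these wells can hold transcripts of both cell types. Their levels are not those of pericytes alone, and no test was fixed for this comparison.

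**Figure D5:**
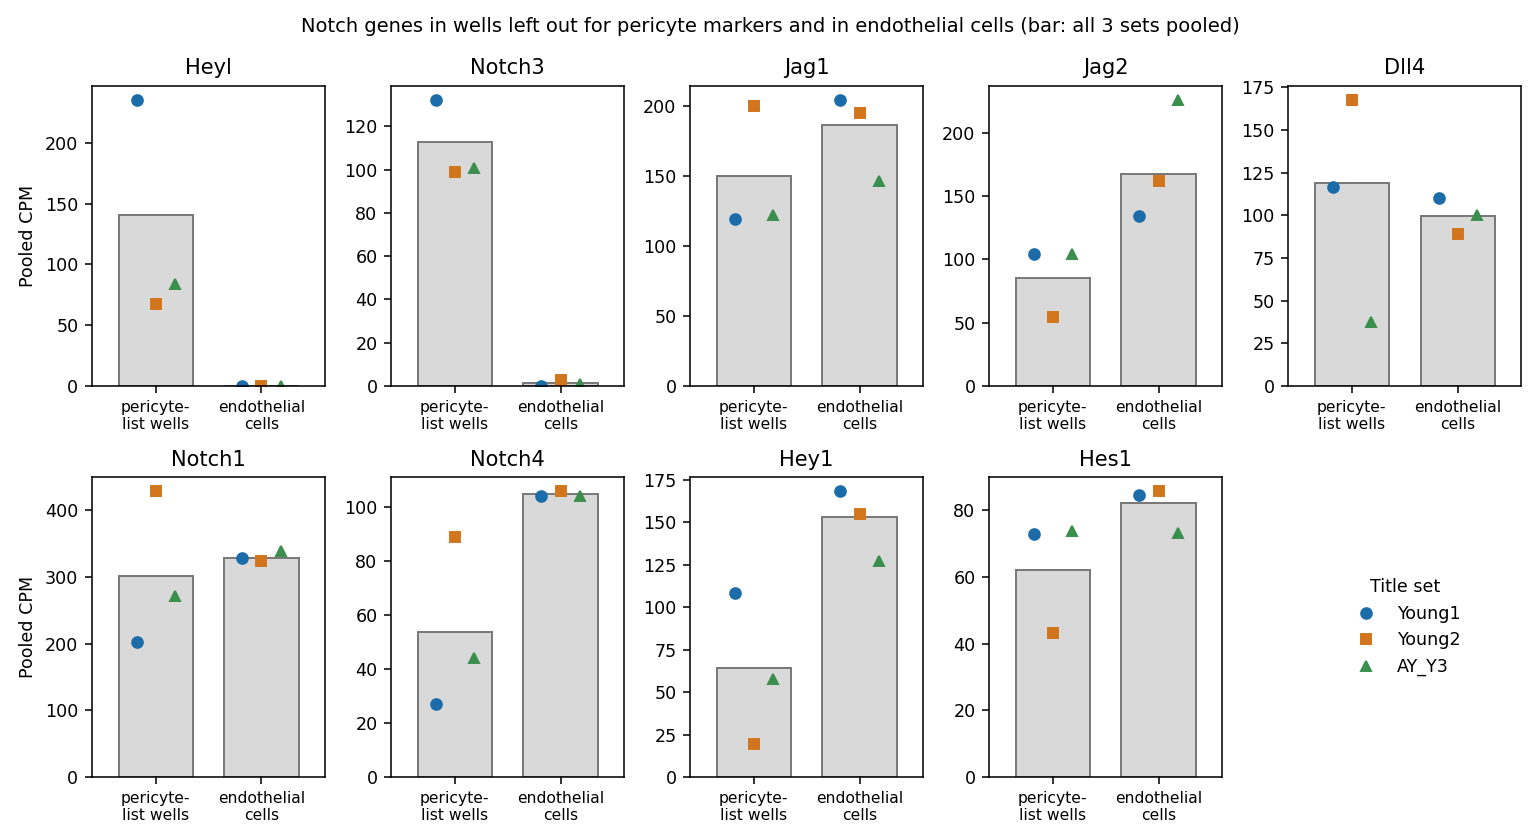
Pooled CPM (linear axes) of the 8 Notch genes and Notch3 in the 68 wells set aside for pericyte genes and in the 654 endothelial cells, as bars over all wells with a symbol per set. Heyl and Notch3 are near 0 in endothelial cells in each set, and Hey1, Notch4 and Jag2 lie lower in the pericyte-list wells in each set.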

How the data were processed

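Single brain endothelial cells were measured by RNA sequencing, 1 sample per cell. The authors deposited whole-number read counts per gene symbol and cell, with no normalization and no molecular identifiers. Bowtie 0.12.2 and the builds mm8 and mm10 are named, without roles, in the submitters' processing notes; the sources used here do not give the counting tool, the annotation or the use of strand. The 8 genes, the gene lists and the tests were chosen with earlier results of these data known.

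Of 20607 symbols, 708 had no count. Wells with another cell type's list above 10% of the endothelial list were left out, and cells were put into marker classes. Counts were summed per set and class (9 sums, 20573863 to 82585241 counts) and tested in edgeR 4.0.16 (R 4.3.3; TMM, set as a block, Benjamini-Hochberg at 0.05). Each set holds all classes, so the set is the block. Tested genes passed edgeR's filterByExpr, were counted in 5% of cells or more, and did not include the 6 pair markers. Alternatives used DESeq2 1.42.0, limma 3.58.1, and other filters, class rules and cells; the fits were checked on simulated data. Shares have exact binomial 95% intervals, with and without thinning to 50000 counts, which treat cells as independent. The text names all 8 genes, each list gene that passed, the 2 with the highest mean CPM of each list among those that did not (a rank that gene length also moves), and the 3 genes most like each of the 7 that were detected often enough. Hes6 was named after its values were seen. Python 3.11.15 with pandas 2.3.3, scipy 1.17.1 and scanpy 1.11.5 was used.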

Additional observations from a re-analysis of the deposited data

Results flagged for a closer look

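Heyl and Notch3 gave signal in the 68 wells set aside for pericyte genes, which no comparison between classes used, above their level in endothelial cells in each set. Over all these wells Heyl had a pooled level of 140.3 CPM in 23 wells, against 0.0855 CPM in 2 endothelial cells. Notch3, a receptor of vascular mural cells and not among the 8 genes, had 112.9 CPM in 25 such wells, against 1.37 CPM in 8 endothelial cells. By set, Notch3 had 132.1, 98.7 and 100.6 CPM in the pericyte-list wells of Young1, Young2 and AY_Y3, against 0.143, 2.82 and 0.936 CPM in endothelial cells. Neither gene had a count in the 10 astrocyte-list or the 10 oligodendrocyte-list wells. Over all 745 wells Heyl was counted in 27, so some of the 3 wells set aside for smooth muscle genes held it too.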

How the results depend on the processing

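With 3 sets, leaving out any of them ended the calls of Jag1 and Hey1, at log2 fold changes of 1.27 to 1.36 and 7.44 to 10.56. The Hey1 level of the Nr2f2/Il1r1 class rests on 83 counts in 3 cells. The causes of the shifts were not tested.

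The share of tested genes called for the Bmx/Gkn3 over the Cxcl12/Rgcc class (0.0662% as reported) was 3.94% with DESeq2, 2.69% with limma on log2(CPM + 1), 1.001% after thinning, 0.245% with classes by detection, 1.49% with wide marker lists, 0.471% without cells near a boundary, 0.206% with all wells, 0.0336% with the 2% limit, 0.153% with wells left out by clustering, 0.121% without the top mural cells, and 0% to 0% with each set left out. DESeq2's size factors in edgeR gave 4 higher and 5 lower, against 1 higher and 5 lower as reported. For the Nr2f2/Il1r1 over the Cxcl12/Rgcc class (0.0662%) the same alternatives gave 3.84%, 13.7%, 0.514%, 0.134%, 0%, 0.0110%, 0.0325%, 0.0224%, 0.0219%, 0.0220% and 0% to 0.0221%, and no filter on low counts gave 0.00513%. For the Bmx/Gkn3 over the Nr2f2/Il1r1 class (1.24%) DESeq2 gave 8.51%, limma 13.1%, thinning 2.93%, no filter 0.205%, the 2% limit 0.179%, and each set left out 0.0330% to 0.485%. Limma moved the median of all genes to 0.37 in the Nr2f2/Il1r1 over Cxcl12/Rgcc contrast, where 1221 calls were higher and 23 lower, and to -0.27 in the Bmx/Gkn3 over Nr2f2/Il1r1 contrast, where 993 were lower.

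Without the replicate block of sets these shares were 0.0110%, 0.187% and 1.07% in the order above, Jag1 between the Bmx/Gkn3 and Nr2f2/Il1r1 classes was no longer called (edgeR adjusted p = 0.0508), and no other call of the 8 genes changed.

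Log2 fold changes that changed sign had not passed as reported. For the Bmx/Gkn3 over the Cxcl12/Rgcc class Dll4 (-0.13) was 0.018 without the block, 0.22 in limma, 0.012 with the 2% limit, 0.026 with clustering and -0.76 to 0.40 with each set left out. Hes1 (0.21) was -0.13 in limma, -0.64 by detection, -0.32 with wide lists, -0.34 without boundary cells and -0.38 to 0.70 with each set left out. For the Nr2f2/Il1r1 over the Cxcl12/Rgcc class Jag1 (0.17) was -0.0012 by detection. Jag2 (0.02) was -0.032 without a filter, -0.10 in limma, -0.14 thinned, -0.20 by detection, -0.044 with wide lists, -0.044 without boundary cells, -0.24 with all wells, -0.20 with the 2% limit and -0.19 to 0.33 with each set left out. Notch4 (-0.64) was -1.17 to 0.057 with each set left out. Hes1 (-0.12) was 0.14 in limma, 0.22 with wide lists, 0.053 with the 2% limit and -0.37 to 0.20 with each set left out. For the Bmx/Gkn3 over the Nr2f2/Il1r1 class Hes1 (0.33) was -0.26 in limma, -0.39 by detection, -0.54 with wide lists, -0.23 without boundary cells and -0.21 to 0.68 with each set left out. Of the values of the 7 tested genes under alternatives, 265 kept direction and side of the threshold, 26 came to pass, 13 no longer passed and 32 changed sign.

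Thinning gave 57.3% of cells with a ligand and a receptor and 39% with all 3 roles (51.7% as deposited). The Hey1 ratio of the Bmx/Gkn3 to the Nr2f2/Il1r1 class was 47.6 in Young1 and 62.1 in AY_Y3 by the mean over cells (578 and 82.5 pooled). This average and the alternatives for Efnb2 and Unc5b were added after seeing the data. No fold change could be given for Heyl, which was too rare to test.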
